A study of Mus musculus with 8 samples.

Results

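The kynurenine route from tryptophan to NAD was described in liver RNA through 8 genes, chosen by name as the enzymes of this route: Tdo2, Ido2, Afmid, Kmo, Kynu, Haao, Acmsd and Qprt. All 8 were found by symbol among the 33212 rows of the count table, and all 8 had enough counts to be among the 15291 genes tested. Liver RNA came from 4 Nnmt LKO mice and 4 control mice, with 1 library per mouse. Nnmt LKO mice carried Alb-Cre together with Nnmt flox/flox alleles. This design is meant to remove Nnmt in cells that had used the albumin promoter and to leave it in other liver cells. The study reports a check of the knockout by RT-qPCR, and whole-liver counts do not show which cells lost Nnmt. The controls, labelled WT, are described in the study's text as Nnmt flox/flox mice. All were males of the C57BL/6 strain. Both genotypes ate a diet that lacks methionine and choline (MCD) for 8 weeks, so no mouse on a normal diet was compared. Age was not given in the sources used here.

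Most of the tryptophan that the body breaks down passes through this route in hepatocytes. Tryptophan dioxygenase (Tdo2) or an indoleamine dioxygenase (Ido1 or Ido2) opens the indole ring, arylformamidase (Afmid) releases kynurenine, and kynurenine monooxygenase (Kmo), kynureninase (Kynu) and hydroxyanthranilate dioxygenase (Haao) turn it into aminocarboxymuconate semialdehyde. This unstable intermediate closes by itself to quinolinate, which Qprt joins to phosphoribosyl to make nicotinate mononucleotide, a precursor of NAD, whereas Acmsd removes the same intermediate towards complete oxidation. NNMT, the enzyme of the deleted gene, methylates nicotinamide, the product that NAD-consuming enzymes release.

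Total counts were between 75020072 and 87934362 per Nnmt LKO or control library, at which 3 counts stand for 0.0341 to 0.04 CPM (counts scaled to the library total). Values below are normalised CPM, in which the total is multiplied by edgeR's TMM factor, and libraries are lettered a to d within a genotype because their columns carry no mouse number. Nnmt itself averaged 139 ± 60.5 CPM in control and 57.1 ± 23.1 CPM in Nnmt LKO mice (SD, n = 4 each; adjusted p = 0.123 by edgeR), with every Nnmt LKO library under every control library. The gap was narrow, from 83.0 CPM in Nnmt LKO library d to 84.9 CPM in control library d, and the other Nnmt LKO libraries were at 31.8 to 68.9 CPM. Nnmt LKO library a stood apart, with a TMM factor of 1.21 against 0.952 to 0.977 in the other 3 Nnmt LKO libraries. Its summed hepatocyte markers were at 77480 CPM, against 115700 to 130300 CPM in the others and 87570 to 129400 CPM in controls, and its summed cholangiocyte markers were at 279 CPM, against 88.8 to 177 and 49.9 to 167 CPM. Alb alone made up 48510 of the 77480 CPM. In library a Alb, Apoa1, Ttr and Serpina1a were below all controls. Tf (17590 CPM) and Cps1 (2729 CPM) were above control library c (16200 and 2275 CPM). Spp1 alone made up 243 of the 279 CPM of the cholangiocyte markers. Krt7, Epcam and Sox9 were also highest in library a, whereas Krt19 (6.39 CPM) was just below control library c (6.41 CPM). In whole liver, fewer cells of a type and less RNA per cell cannot be told apart. The hepatocyte markers are among the most abundant liver transcripts, whereas the 5 kidney tubule markers examined together were at 0 to 0.284 CPM per library.

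No member passed an adjusted p of 0.05 by edgeR (quasi-likelihood test, Benjamini-Hochberg adjustment over all tested genes), while 0.32% of all tested genes did. With the Wald test of DESeq2 1 member, Qprt, passed, beside 3.32% of all tested genes. At an unadjusted p under 0.05, that is before adjustment, 2 of the 8 members were called by edgeR, Tdo2 higher and Qprt lower in Nnmt LKO mice, where 12.6% of all tested genes were called, 5.45% higher and 7.13% lower. The members split evenly, with 4 fold changes above and 4 below 0, and their median log2FC (log2 of Nnmt LKO over control) was -0.06 against 0.02 for all tested genes. The largest estimates stood at the first and the last enzyme, Tdo2 and Qprt, with opposite signs.

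Tdo2 (ENSMUSG00000028011, chromosome 3, minus strand, 81957090 to 81976202 in GRCm38) encodes the heme dioxygenase that starts the route in hepatocytes. It was at 589, 935, 784 and 1337 CPM in Nnmt LKO libraries a to d and at 479.9, 646, 709 and 516 CPM in control libraries a to d. Nnmt LKO libraries b, c and d were above all 4 controls, and library a lay inside the control range. Mean Tdo2 was 588 ± 108 CPM in control and 911 ± 317 CPM in Nnmt LKO mice (SD, n = 4 each). This gave a log2FC of 0.63 (SE 0.23, 95% interval 0.12 to 1.15, unadjusted p = 0.0201, adjusted p = 0.288 by edgeR). Nnmt LKO library d, the highest for Tdo2, was also the Nnmt LKO library with the most Nnmt. Without it, Tdo2 was at 0.39 with an unadjusted p of 0.0788, and without library a, the lowest, it was at 0.79 (unadjusted p = 0.00191, adjusted p = 0.095 by edgeR). Without control library a or d its unadjusted p was 0.0509 or 0.0537 by edgeR. Of all tested genes, 6.19% had a larger log2FC than Tdo2.

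Ido2 (ENSMUSG00000031549, chromosome 8, minus strand, 24531892 to 24576333) encodes an indoleamine dioxygenase with the same reaction as Tdo2. It was at 5.29, 15.8, 12.0 and 11.2 CPM in Nnmt LKO libraries a to d and at 16.6, 11.8, 10.1 and 17.0 CPM in control libraries a to d. The genotypes overlapped, and Nnmt LKO library a alone lay outside the control range. For Ido2 the log2FC was -0.33 (SE 0.29, 95% interval -0.96 to 0.30, adjusted p = 0.679 by edgeR), an interval that holds lower as well as higher levels. Its relative Ido1, the inducible enzyme of immune cells, had 3 counts in all, each in Nnmt LKO library a, and 0 counts in the other 7 libraries, where a count of 0 allows up to 3 counts. Per kb of exon Tdo2 was at 151 ± 27.7 CPM and Ido2 at 3.81 ± 0.948 CPM in control mice (SD, n = 4), and every library of Tdo2 was above every library of Ido2 in each genotype.

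Afmid (ENSMUSG00000017718, chromosome 11, plus strand, 117825924 to 117839908), the formamidase of the second step, was at 8.52, 28.3, 21.8 and 21.9 CPM in Nnmt LKO libraries a to d. In control libraries a to d it was at 21.5, 25.8, 14.4 and 30.5 CPM. Nnmt LKO library a was under every other library, and the other 3 lay within the control range. Afmid had a log2FC of -0.19 (SE 0.32, 95% interval -0.89 to 0.51, adjusted p = 0.842 by edgeR), and it turned to 0.06 without Nnmt LKO library a. Its exons share 1566 bases with Gm20708 on the same strand and 83 bases with Tk1 on the other. Reads there could have been assigned to either gene, and whether the counting used strand was not given in the sources used here.

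Kmo (ENSMUSG00000039783, chromosome 1, plus strand, 175620381 to 175662116) encodes the flavin enzyme of the mitochondrial outer membrane that hydroxylates kynurenine. It was at 118, 172, 169 and 220.4 CPM in Nnmt LKO libraries a to d and at 163, 177, 158 and 149 CPM in control libraries a to d. The control libraries were closely grouped, with an SD of 7.2% of their mean, and Nnmt LKO libraries a and d lay outside them on opposite sides. The estimate for Kmo was a log2FC of 0.07 (SE 0.17, 95% interval -0.30 to 0.44, adjusted p = 0.893 by edgeR), and it turned to -0.08 without Nnmt LKO library d. This was the smallest estimate of the 8 members.

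Kynu (ENSMUSG00000026866, chromosome 2, plus strand, 43555329 to 43682715), the vitamin B6-dependent kynureninase, was at 65.7, 109, 117 and 139 CPM in Nnmt LKO libraries a to d. In control libraries a to d it was at 91.6, 81.2, 66.6 and 88.03 CPM. Nnmt LKO libraries b, c and d were above all controls, and library a was below all of them. Over all libraries Kynu had a log2FC of 0.40 (SE 0.20, 95% interval -0.04 to 0.84, unadjusted p = 0.0725, adjusted p = 0.44 by edgeR). Kynu is also expressed by macrophages, and the summed Kupffer cell and macrophage markers (10 genes) were at 500.0 to 749 CPM in Nnmt LKO and 388 to 754 CPM in control libraries. The highest of the Nnmt LKO libraries for these markers was library a, where Kynu was lowest. None of the 10 markers had an unadjusted p under 0.05 by edgeR, and their part in the Kynu values was not tested.

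Haao (ENSMUSG00000000673, chromosome 17, minus strand, 83831156 to 83847963), the iron dioxygenase that makes the intermediate shared by Acmsd and Qprt, was at 72.0, 145, 136 and 142 CPM in Nnmt LKO libraries a to d. In control libraries a to d it was at 177, 187, 106 and 133 CPM. Library a was far below the other Nnmt LKO libraries, which lay within the control range. For Haao the log2FC was -0.29 (SE 0.23, 95% interval -0.80 to 0.23, adjusted p = 0.654 by edgeR), and without Nnmt LKO library a it was -0.10.

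**Figure D1:**
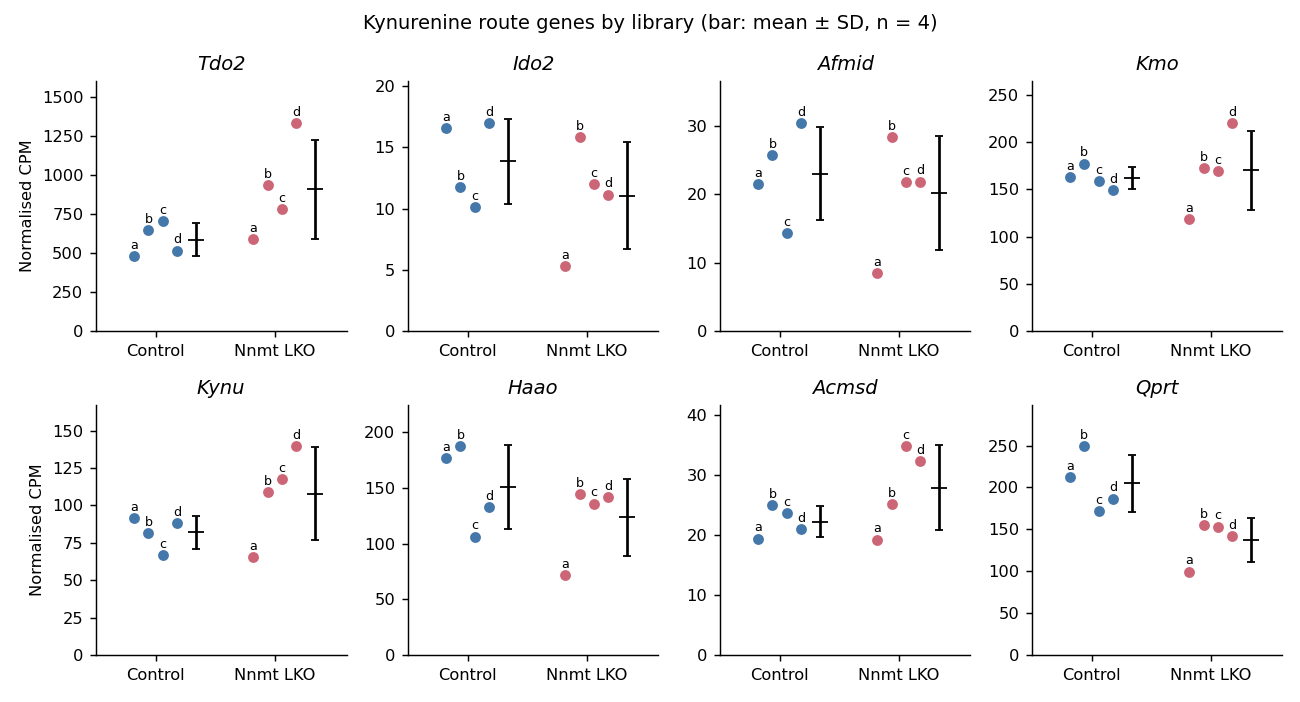
Normalised CPM of the 8 kynurenine route genes in each library, with lettered points for control (left) and Nnmt LKO mice (right) and black bars for the mean ± SD (n = 4 each). Qprt is the only gene whose genotypes do not overlap, and Nnmt LKO library a is the lowest of its genotype in every panel.

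Acmsd (ENSMUSG00000026348, chromosome 1, plus strand, 127729413 to 127767978), the decarboxylase that draws the shared intermediate away from NAD, was at 19.2, 25.2, 34.7 and 32.3 CPM in Nnmt LKO libraries a to d. In control libraries a to d it was at 19.4, 24.9, 23.6 and 20.9 CPM. Nnmt LKO libraries b, c and d were above all controls, b only by a narrow step, and library a was just below all of them. Acmsd had a log2FC of 0.33 (SE 0.17, 95% interval -0.06 to 0.71, unadjusted p = 0.0891, adjusted p = 0.469 by edgeR).

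Qprt (ENSMUSG00000030674, chromosome 7, minus strand, 127107114 to 127122226) encodes the phosphoribosyltransferase that commits the route to NAD. It was at 99.5, 155, 153 and 141 CPM in Nnmt LKO libraries a to d and at 212, 249, 171 and 186 CPM in control libraries a to d. Every Nnmt LKO library was below every control library, the case for 1 of the 8 members and for 8.16% of all tested genes (4.81% lower, 3.34% higher in Nnmt LKO). Mean Qprt was 205 ± 33.9 CPM in control and 137 ± 25.9 CPM in Nnmt LKO mice (SD, n = 4 each), or 67.0% of control. A two-sided exact permutation test over the 8 libraries gave p = 0.0286 for Qprt, the smallest p that 4 against 4 can give and the one that any separation without overlap gives. The same exact test gave p = 0.0857 for Tdo2 and from 0.171 to 0.686 for the other 6 members. Its log2FC was -0.58 (SE 0.17, 95% interval -0.94 to -0.21, unadjusted p = 0.0051, adjusted p = 0.17 by edgeR). With any 1 library left out it lay between -0.65 and -0.45, with an unadjusted p under 0.05 in all 8 and an adjusted p between 0.167 and 0.457. DESeq2 gave -0.57 for Qprt (Wald test, adjusted p = 0.0397).

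Many genes next to Qprt on chromosome 7 also had lower values in Nnmt LKO mice. Of all tested genes, 12.6% had an unadjusted p under 0.05 by edgeR, 7.13% lower in Nnmt LKO. Over the 131 tested genes within 5 Mb on either side of Qprt the median log2FC was -0.29. All 54 of them at that threshold were lower in Nnmt LKO. Of these neighbours, 10.7% had a lower log2FC than Qprt, compared with 3.7% of all tested genes. For the other 7 members the median of the neighbours within the same distance lay between -0.10, around Afmid, and 0.15, around Ido2, and the median for all tested genes of chromosome 7 except Qprt was -0.14. The part of this regional difference in the level of Qprt was not tested.

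Acmsd and Qprt use the same intermediate, and their relative levels were compared within each library. The log2 CPM of Acmsd minus that of Qprt was -2.37, -2.62, -2.14 and -2.13 in Nnmt LKO libraries a to d and -3.45, -3.32, -2.86 and -3.15 in control libraries a to d. All Nnmt LKO libraries, library a included, were above all control libraries. The mean was -3.20 ± 0.26 in control and -2.32 ± 0.23 in Nnmt LKO mice (SD, n = 4 each), a difference of 0.88. Per kb of exon, the Acmsd level was 10.3 ± 1.88% of the Qprt level in control and 18.9 ± 2.92% in Nnmt LKO mice (SD, n = 4 each). Qprt alone also separated the genotypes (log2FC -0.58, beside 0.33 for Acmsd), as did 8.16% of all tested genes taken singly. Other gene pairs were not examined. The part of the lower values around Qprt on chromosome 7 in this difference was not tested. The pair was chosen with the values known, so no test was made. RNA levels give no rate of either reaction.

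**Figure D2:**
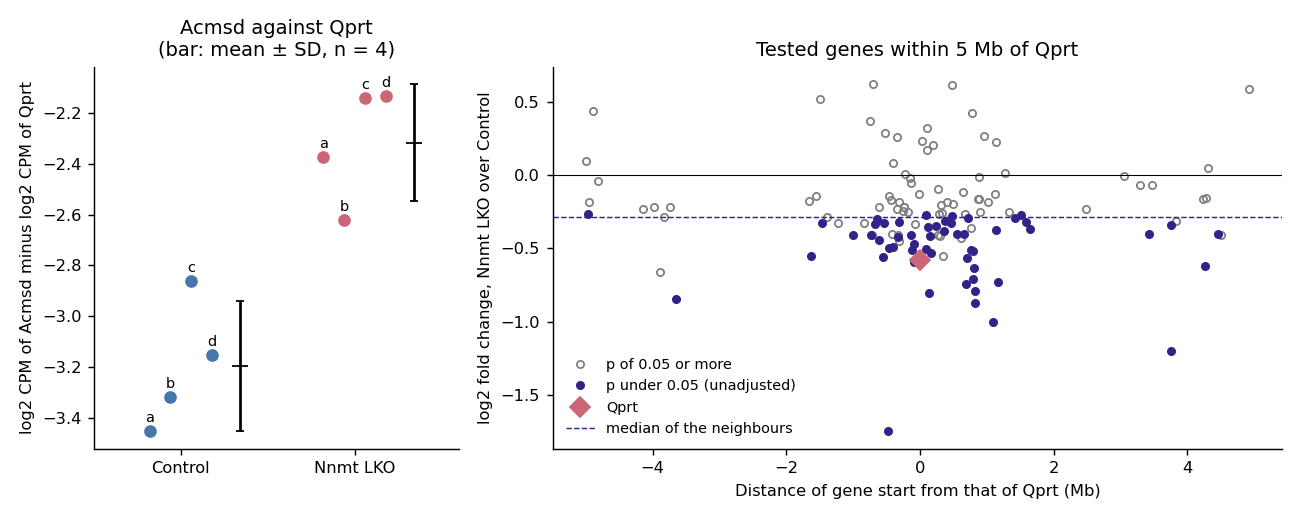
Left, log2 CPM of Acmsd minus log2 CPM of Qprt in each library (letters) with the mean ± SD (n = 4 each); the 4 Nnmt LKO libraries lie above the 4 control libraries. Right, log2FC (Nnmt LKO over control) of the tested genes within 5 Mb of Qprt against the distance of their start from that of Qprt in Mb; filled points have an unadjusted p under 0.05 and all lie below 0, and the dashed line is the neighbours' median of -0.29.

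Nnmt LKO library a was the lowest of the 4 Nnmt LKO libraries for all 8 members. Over all tested genes, it was the lowest in 33.1%. On the log2 scale its difference from the mean of the other 3 Nnmt LKO libraries was between -0.59 for Qprt and -1.48 for Afmid, where the median of all tested genes was -0.01. Of all tested genes, 1.27% to 8.12% lay further below than the respective member. Each of the 6 hepatocyte markers, like their sum given above, was also lowest there among the Nnmt LKO libraries. So were the tested genes of the list of other tryptophan and kynurenine enzymes below, except Il4i1 and Maoa. Among the control libraries, c had the lowest sum of hepatocyte markers and was the lowest for 5 of the 8 members (Ido2, Afmid, Kynu, Haao and Qprt), whereas it was the highest for Tdo2. The part of the hepatocyte marker level in the members' values was not tested.

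Without Nnmt LKO library a, the groups of 3 and 4 libraries no longer overlapped for Tdo2, Kynu and Acmsd, all higher in Nnmt LKO, nor for Qprt, which was lower. This was 4 of 8 members, with 13.5% of all tested genes not overlapping in this comparison, 6.04% higher in Nnmt LKO. The same 4 members had an unadjusted p under 0.05 by edgeR, where 13.3% of all tested genes did. The log2FC was then 0.79 for Tdo2 (95% interval 0.36 to 1.23), 0.57 for Kynu (0.27 to 0.88), 0.47 for Acmsd (0.16 to 0.78) and -0.45 for Qprt (-0.76 to -0.14). Their adjusted p-values by edgeR were 0.095, 0.086, 0.168 and 0.182. Library a is singled out here with its values known, and no member passed an adjusted p of 0.05 without it. When counts were scaled by library size only, with all 8 libraries, Tdo2, Kynu, Acmsd and Qprt again had an unadjusted p under 0.05, where 9.4% of all tested genes did.

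**Figure D3:**
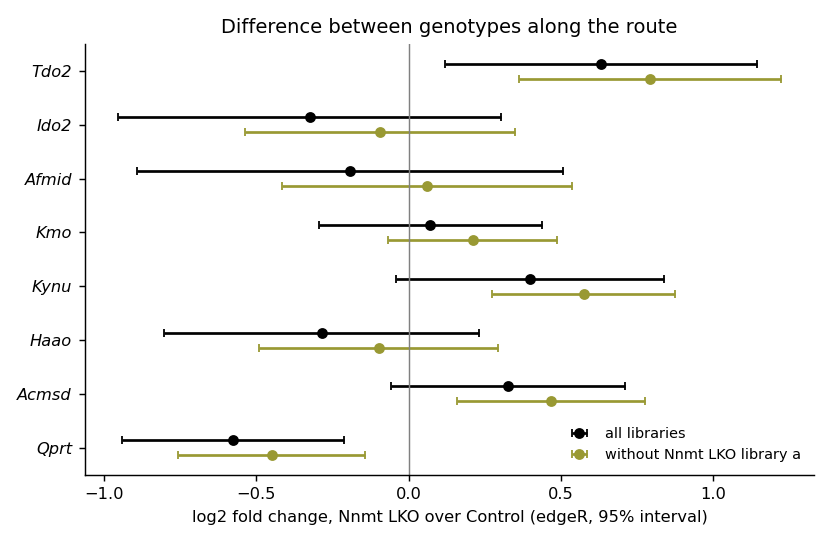
Log2FC (Nnmt LKO over control, edgeR) of each route gene in the order of the route, with its 95% interval, from all 8 libraries (black) and without Nnmt LKO library a (olive). With all libraries the interval excludes 0 for Tdo2 and Qprt, and without library a also for Kynu and Acmsd.

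The levels of the 8 transcripts spanned a wide range, and were compared between genes as normalised CPM per kb of exon. In control mice the order was Tdo2 (151 ± 27.7), Qprt (77.4 ± 12.8), Kmo (34.3 ± 2.47), Haao (32.2 ± 8.1), Kynu (13.3 ± 1.8), Acmsd (7.84 ± 0.893), Afmid (6.51 ± 1.93) and Ido2 (3.81 ± 0.948 CPM per kb, SD, n = 4). The control libraries of Kmo and Haao overlapped, as did those of Acmsd and Afmid and those of Afmid and Ido2, so these neighbours were not separated beyond their spread. The order in Nnmt LKO mice was identical, from 235 ± 81.8 for Tdo2 and 51.9 ± 9.78 for Qprt down to 3.05 ± 1.2 CPM per kb for Ido2 (SD, n = 4). There Tdo2 alone was separated from the next gene by all its libraries. Tdo2 was above 97.7% and Ido2 above 60.8% of the 15146 tested genes with a known length in control mice. Exon lengths were summed over all annotated transcripts, so a gene with unused exons is placed too low.

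**Figure D4:**
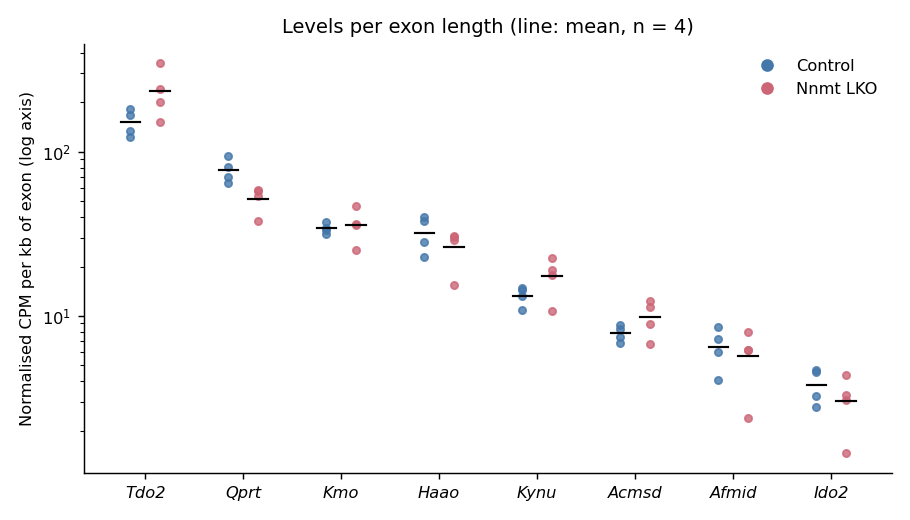
Normalised CPM per kb of exon (log axis) of the 8 route genes, ordered by their control mean, with a point for each control (blue) and Nnmt LKO (red) library and a line for the mean (n = 4). Tdo2 is the highest in both genotypes and Ido2 the lowest.

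Enzymes that take kynurenine or tryptophan elsewhere were examined as a list of 15 genes. Of these, 10 were tested, 2 were higher and 1 lower at an unadjusted p under 0.05 by edgeR, and none passed after adjustment. Of all tested genes, 12.6% were called at that threshold, 5.45% higher and 7.13% lower. The median log2FC of the 10 was -0.06. Estimates for the transaminases that turn kynurenine into kynurenic acid differed in sign. Kyat1 (listed as Ccbl1) was at 48.8, 67.1, 51.3 and 62.8 CPM in Nnmt LKO libraries a to d and at 87.2, 85.1, 81.2 and 109 CPM in control libraries a to d, without overlap. Such a separation held for 1 of the 10 and for 8.16% of all tested genes, 4.81% lower in Nnmt LKO. By DESeq2, 3.32% of all tested genes passed an adjusted p of 0.05. Kyat1 had a log2FC of -0.66 (SE 0.14, adjusted p = 0.0725 by edgeR, 0.00203 by DESeq2). Kyat3 (listed as Ccbl2), its relative, had a log2FC of 0.66 (SE 0.26, unadjusted p = 0.0268, adjusted p = 0.317 by edgeR), and with single libraries left out it lay between 0.48, without Nnmt LKO d, and 0.87, without Nnmt LKO a, with an adjusted p by edgeR from 0.0495 to 0.536. Its unadjusted p stayed under 0.05 in 4 of these 8 fits and was lost without Nnmt LKO c or d or control c or d. Kyat3 was at 112, 200.1, 254 and 289.7 CPM in Nnmt LKO libraries a to d and at 173, 145, 114 and 111 CPM in control libraries a to d, and library a lay among the controls. Aadat, a mitochondrial enzyme of the same reaction, was at -0.08 (95% interval -0.50 to 0.34). Ddc, the decarboxylase of serotonin synthesis, had a log2FC of 0.46 (SE 0.13, adjusted p = 0.173 by edgeR), and single libraries left out gave 0.36 to 0.57 (adjusted p by edgeR from 0.374 down to 0.0377, the latter without Nnmt LKO library a). The serotonin-forming hydroxylases had 9 counts in all for Tph1, all in Nnmt LKO library b, and 0 for Tph2.

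In the lists of neighbouring steps 0 or 1 gene each had an unadjusted p under 0.05 by edgeR, where 12.6% of all tested genes did. Of the 7 genes that finish the breakdown of the Acmsd branch, 1 was lower at an unadjusted p under 0.05, Echs1 (enoyl-CoA hydratase), with a log2FC of -0.47 (adjusted p = 0.26 by edgeR, and an unadjusted p of 0.0536 without control library a). Echs1, like Qprt, lies on chromosome 7 (140105710 to 140116476), but outside the 5 Mb around Qprt. A part of the chromosome in the level of Echs1 was not tested. Of 7 genes for the transport of tryptophan and related amino acids, 1 was lower at that threshold, Slc3a2, the heavy chain shared by several amino acid carriers. Slc3a2 averaged 147 ± 14.1 CPM in control and 102 ± 18.9 CPM in Nnmt LKO mice (SD, n = 4 each), without overlap. This held for 1 of the 7 and for 8.16% of all tested genes. An adjusted p under 0.05 by DESeq2 was reached by 3.32% of all tested genes. The log2FC of Slc3a2 was -0.53 (adjusted p = 0.142 by edgeR, 0.0276 by DESeq2). Its light chain partner Slc7a5 had a log2FC of -0.21 (95% interval -0.63 to 0.20). After nicotinate mononucleotide, Nmnat1, which adds the adenylate, was higher at an unadjusted p of 0.0483 (log2FC 0.30, adjusted p = 0.391 by edgeR). This call was lost with scaling by library size only (unadjusted p = 0.0719) and kept in 2 of the 8 fits with 1 library left out. The amidating enzyme Nadsyn1 was at -0.27 (95% interval -0.68 to 0.14). Of the genes that make NAD from nicotinamide or nicotinate, 3 of 4 were tested and none had an unadjusted p under 0.05. Nampt, the rate-limiting enzyme of salvage, averaged 37.8 ± 4.38 CPM in control and 43.7 ± 3.55 CPM in Nnmt LKO mice (SD, n = 4 each), and Naprt (listed as Naprt1) averaged 69.7 ± 17.8 and 58.9 ± 9.59 CPM.

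Tdo2 is a textbook target of the glucocorticoid receptor, and 7 other genes induced by glucocorticoids were examined. All 7 had a log2FC above 0, with a median of 0.43, beside 0.02 for all tested genes, of which 7995 of 15291 were above 0. Only Sgk1 (0.43, unadjusted p = 0.0316) and Pck1 (0.42, unadjusted p = 0.0438) were past an unadjusted p of 0.05 by edgeR. Of all tested genes, 12.6% were called at that threshold, 5.45% higher in Nnmt LKO. Neither Sgk1 nor Pck1 passed after adjustment (adjusted p = 0.334 and 0.381 by edgeR). Each of these unadjusted calls was kept in only 3 of the 8 fits with 1 library left out, with p up to 0.0856 for Sgk1 and 0.121 for Pck1. All 7 stellate cell markers and all 5 cholangiocyte markers also had a log2FC above 0, with medians of 0.26 and 0.30, and their part in the values of the glucocorticoid-induced genes was not tested. The genotypes overlapped for each of the 7. The smallest estimate of the 7 was that of Tsc22d3 (log2FC 0.11, unadjusted p = 0.559 by edgeR). Nr3c1, the gene of the receptor itself, had a log2FC of 0.09 (unadjusted p = 0.447 by edgeR). The part of glucocorticoid signalling in the level of Tdo2 was not tested. Tat, the tyrosine aminotransferase of the same class of hepatic amino acid enzymes, averaged 2079 ± 762 CPM in control and 2881 ± 607 CPM in Nnmt LKO mice (SD, n = 4 each), with an adjusted p of 0.475 by edgeR.

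**Figure D5:**
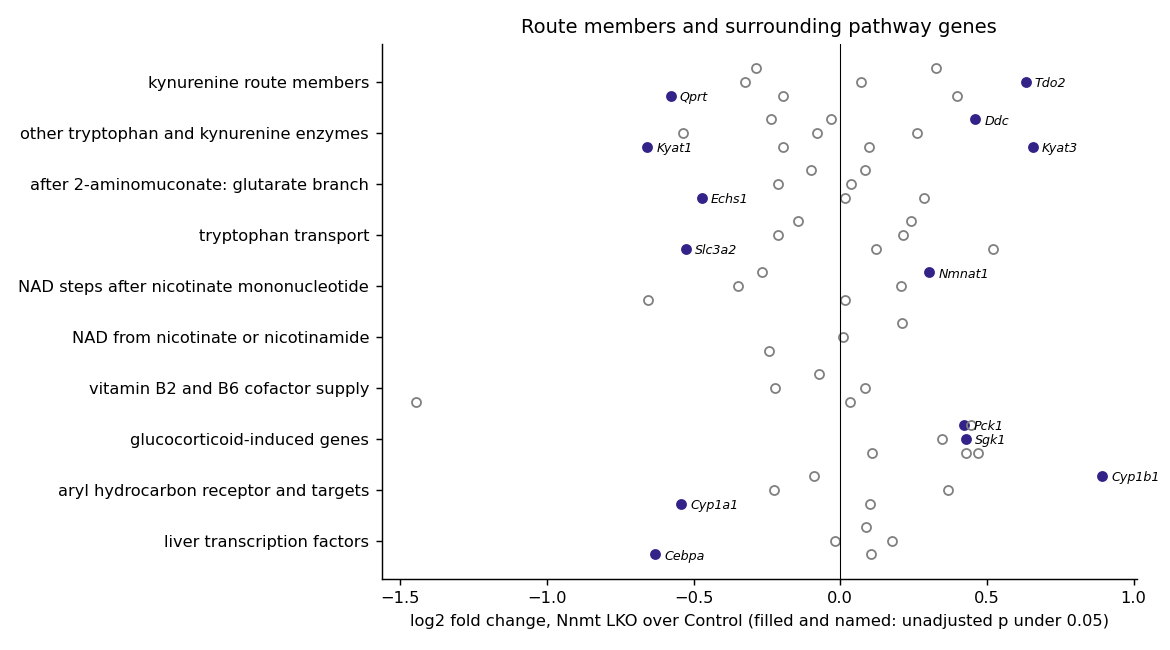
Log2FC (Nnmt LKO over control) of the route members and of the tested genes of each pathway list, 1 point per gene, with genes at an unadjusted p under 0.05 by edgeR filled and named. No gene shown passed an adjusted p of 0.05 by edgeR, beside 0.32% of all tested genes. By DESeq2, Qprt, Kyat1, Slc3a2 and Cebpa passed, beside 3.32% of all tested genes. All 7 glucocorticoid-induced genes lie above 0, as do 7995 of all 15291 tested genes.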

How the data were processed

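RNA-seq of whole liver from 4 Nnmt LKO and 4 control mice was used. The authors aligned and quantified reads with HISAT2, per their methods, and their processing notes list mm10 and StringTie without a role. They deposited whole-number counts per gene, not normalized, and 12414 of 33212 genes had 0 counts in every library. Versions, annotation and strand setting were not given in the sources used here. As columns carry only the genotype, no pairing was made. Pairs of libraries of one genotype differed beyond sampling noise (chi-square per degree of freedom 42.2 to 263), and each was 1 replicate.

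Genes were filtered with filterByExpr (minimum count 10), scaled by TMM and tested with edgeR 4.0.16 in R 4.3.3, with Benjamini-Hochberg adjustment over 15291 genes. Standard errors and 95% intervals follow from the test's F statistic. DESeq2 1.42.0 was an alternative, with other scalings, no filter, a robust fit and each library left out. The test was tried on simulated counts first. Positions and exon lengths came from GENCODE M21 (GRCm38), which held 99.1% of tested genes. The members and lists were chosen with earlier results of these data known. Named genes were the members, Nnmt, and the genes of each list at an unadjusted p under 0.05, or else its 2 smallest p, and others are named as background of a list after their values were seen. Sequences are not reported here. The p-values set each difference between genotypes against the spread between these libraries.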

Additional observations from a re-analysis of the deposited data

Results flagged for a closer look

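The values of Haao and of the TMM factor in Nnmt LKO library a lay far from those of the other 3 Nnmt LKO libraries. Haao was at 72.0 CPM there, against 136 to 145 CPM in the others, a gap of 0.879 of the group's range. The TMM factor was 1.21 there, against 0.952 to 0.977, a gap of 0.903 of the range. Both gaps exceed Dixon's 95% critical value for 4 libraries. In 54 groups of 4 libraries examined, chance gives about 2.7 such values, and 2 were found. The cause was not tested.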

How the results depend on the processing

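No paired analysis was possible because the columns carry no replicate number. In 13 alternatives Qprt stayed lower and Tdo2, Kynu and Acmsd stayed higher in Nnmt LKO mice, as did Acmsd relative to Qprt in its 10. With one replicate left out, the log2FC of Afmid ran from -0.404 to 0.0609, above 0 without Nnmt LKO replicate a, and that of Kmo from -0.0791 to 0.21, below 0 without Nnmt LKO replicate d. DESeq2 gave Qprt -0.57 (adjusted p = 0.0397) and Nnmt -1.28 (adjusted p = 0.00467), both past the threshold that edgeR's adjusted p missed (0.17 and 0.123). Past an adjusted p of 0.05 there were 0 members by edgeR (2 at an unadjusted p under 0.05) and 1 by DESeq2. Members at an unadjusted p under 0.05 numbered 4 with scaling by library size only. Leaving out single replicates gave 1 to 4: 4 without Nnmt LKO replicate a, and 1 (Qprt) without Nnmt LKO replicate d, Control replicate a or Control replicate d. Of all tested genes, 49 passed an adjusted p of 0.05 by edgeR, 30 with DESeq2's size factors, 22 with library size only, 8 with no filter, 508 by DESeq2 and 6 to 149 with one replicate left out, 149 being without Nnmt LKO replicate a. At an unadjusted p under 0.05 there were 1925, and 1259 to 2194 with one replicate left out. The causes were not tested.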

Other observations

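Kynurenine is a ligand of the aryl hydrocarbon receptor (AHR), and 7 genes of this receptor and its targets were examined. Of these, 6 were tested, 1 was higher and 1 lower at an unadjusted p under 0.05 by edgeR, where 12.6% of all tested genes were called. None passed after adjustment. Cyp1a1, the classic target, was at 3.45, 3.13, 2.7 and 3.35 CPM in Nnmt LKO libraries a to d and at 4.95, 5.15, 3.7 and 4.6 CPM in control libraries a to d, without overlap. This held for 1 of the 6 and for 8.16% of all tested genes. Cyp1a1 had a log2FC of -0.54 (SE 0.17, adjusted p = 0.211 by edgeR). Of the 6, 3 had a log2FC above 0 and 3 below. Cyp1a2 was at -0.23 (95% interval -0.63 to 0.17) and Tiparp at 0.37 (-0.01 to 0.75), both with overlap. Cyp1b1, which stellate cells also express, had a log2FC of 0.89 (SE 0.39, unadjusted p = 0.0425, adjusted p = 0.375 by edgeR), and 0.48 without Nnmt LKO library a (unadjusted p = 0.182), where the summed stellate cell markers were at 545 CPM, compared with 225 to 285 CPM in Nnmt LKO libraries b to d. In control libraries this sum was at 183 to 312 CPM. Col3a1 (231 CPM) and Col1a1 (106 CPM) made up much of it in library a. Of the stellate cell markers, only Reln was higher in another Nnmt LKO library (119 CPM in c, 111 CPM in a). The part of these markers in the Cyp1b1 value was not tested. The unadjusted call of Cyp1b1 was kept in 4 of the 8 fits with 1 library left out. Ahr itself was at 0.10 (95% interval -0.25 to 0.46).

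Among 5 transcription factors of hepatocytes, Cebpa was at 153, 187, 166 and 187 CPM in Nnmt LKO libraries a to d and at 302, 303, 227 and 241 CPM in control libraries a to d. The genotypes did not overlap, the case for 1 of the 5 and for 8.16% of all tested genes. Cebpa had a log2FC of -0.63 (SE 0.13, adjusted p = 0.0778 by edgeR, 0.00138 by DESeq2). By DESeq2, 3.32% of all tested genes passed an adjusted p of 0.05. Cebpa lies on chromosome 7 (35119293 to 35121928), outside the 5 Mb around Qprt. The tested genes of this chromosome other than Qprt had a median of -0.14, and their part in the level of Cebpa was not tested. Hnf4a was at 0.18 (95% interval -0.24 to 0.60). A list of 5 genes covered the flavin and vitamin B6 cofactors of Kmo and Kynu, which they make or, as Pdxp does, remove. None of them had an unadjusted p under 0.05 by edgeR, where 12.6% of all tested genes did. The smallest p were those of Pdxp (log2FC -1.45, 95% interval -3.16 to 0.27), a gene under 2 CPM in every library whose genotypes did not overlap, and Flad1 (-0.22, -0.51 to 0.06).

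The 3 tested genes whose log2 CPM followed Qprt most closely over the 8 libraries were Hsd17b2, an oxidizing steroid dehydrogenase (Pearson r = 0.997), Dnajc22 (0.982) and Serpinf2, the plasmin inhibitor (0.98). They were picked from all tested genes, and the points share the difference between genotypes.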
